A study of Homo sapiens with 36 samples.

Results

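The genes described here are 36 that code for enzymes and membrane proteins of the lysosome, followed in NB4 cells given all-trans retinoic acid (ATRA), atorvastatin or both. They were chosen by name for this function, without a threshold on any value. Of the 36 genes, 34 had a named probe that passed the filter on dim probes, among 15308 genes tested, and CTSH and ACP5 had no named probe and carry no value here. The 34 were 6 membrane proteins, 9 proteases and peptidases, 9 glycosidases, 6 proteins of lipid breakdown and 4 sulfatases. Each gene was read from its brightest probe.

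NB4 is an established human cell line from acute promyelocytic leukaemia, a leukaemia of granulocyte precursors driven by a PML-RARA fusion. ATRA releases the maturation block of such cells, and atorvastatin is a statin, an inhibitor of HMG-CoA reductase in the mevalonate pathway. The study asked whether the statin alters gene expression during ATRA-driven maturation. Cells received no agent (control), ATRA alone, atorvastatin alone or both (combination), with ATRA given 1 h before atorvastatin. RNA was taken at 8, 24 and 48 h, which gave 12 groups of 3 arrays, and the 3 arrays of a group came from 3 independent experiments run on different days. Doses are not given in the sources used here. All groups share this one line, and in such bulk RNA fewer cells of a kind cannot be told apart from less RNA per cell.

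A lysosome is an acid compartment in which proteins, glycans, lipids and sulfated sugars are taken apart. Its enzymes are made in the endoplasmic reticulum, tagged with mannose 6-phosphate in the Golgi and carried to the compartment by receptors, while a proton pump, the V-ATPase, acidifies it. The transcription factors TFEB and TFE3 bind a palindromic motif in many lysosomal promoters and raise their transcription. In granulocytes the azurophil granule is a lysosome-related organelle made at the promyelocyte stage, and CD63 sits in its membrane. Macrophages and monocytes are rich in lysosomal hydrolases.

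Values are log2 probe signals after background correction and quantile normalization, on which the median probe of all arrays stood at 6.33 and the 90th percentile at 8.57. A change is a difference of group means on this scale with its standard error, and a gene is said to have risen or fallen where limma's test, adjusted by the Benjamini-Hochberg method over all 15308 genes, gave an adjusted p under 0.05. The lysosomal markers were well expressed: CTSB lay between 8.64 and 9.80 and CD63 between 9.42 and 10.86 over the 36 arrays. Raw median signals ran from 78.5 to 185.4, and in experiment 1 the arrays labelled without ATRA (152.2 to 185.4) were brighter than those labelled with it (101.8 to 118.2). Both ranges include a library at 24 h, described below, that went against its label (178.9 labelled atorvastatin and 118.2 labelled ATRA).

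The promyelocyte markers of the line were high, with 4 of 5 measured and a mean of 13.34 to 13.48 in the control arrays at 48 h, against 11.43 to 11.88 with both agents. CD33 was the one not measured. Of 8 monocyte and macrophage markers 6 were measured, with a mean of 6.42 to 6.49 in the controls and 6.81 to 6.89 in the combination at 48 h. Of these, CSF1R (1.37 ± 0.20, adjusted p = 2.02e-06) and FCGR3A (0.93 ± 0.17, adjusted p = 6.51e-05, from 6.33, the array median) rose. No rise is reported for the other markers measured, CD14, MRC1, MARCO and MSR1, so the higher mean is not a rise of each marker. The part of these shifts in the lysosomal changes was not tested. Lymphoid markers averaged 7.28 to 7.36 in the controls and 7.05 to 7.16 in the combination, and CD3D and CD79B fell.

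At 24 h, 2 libraries of experiment 1 went against their labels. NCF1, a subunit of the phagocyte oxidase, read 7.87 in the one labelled ATRA, where its partners read 13.79 and 13.93. In the one labelled atorvastatin it read 13.64, where its partners read 7.48 and 7.36. KLF2, a transcription factor, showed the converse: 8.50 under the ATRA label (partners 6.48 and 6.43) and 6.48 under the atorvastatin label (partners 8.86 and 9.09). The labels were kept, and counts of the 34 genes in each comparison are also given without these 2 libraries, which changes the shared estimate of the spread at every time.

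The comparison with the most calls among the lysosomal genes was both agents against control at 48 h. In it, 20 of the 34 measured genes rose and 0 fell, where 9.66% of all genes tested rose and 10.7% fell. Leaving out the 2 doubted libraries also gave 20 (10.1% of all genes rose), with the same number in each of the roles below. The median change of the 34 was 0.52, beside -0.01 for all genes, and 29 of the 34 changes were positive. In 22 of the 34 the 3 combination arrays lay above all 3 control arrays, where 14.3% of all genes did so. Cathepsin D led with a 10.6-fold rise, and the others that rose did so by 1.37- to 2.85-fold.

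**Figure D1:**
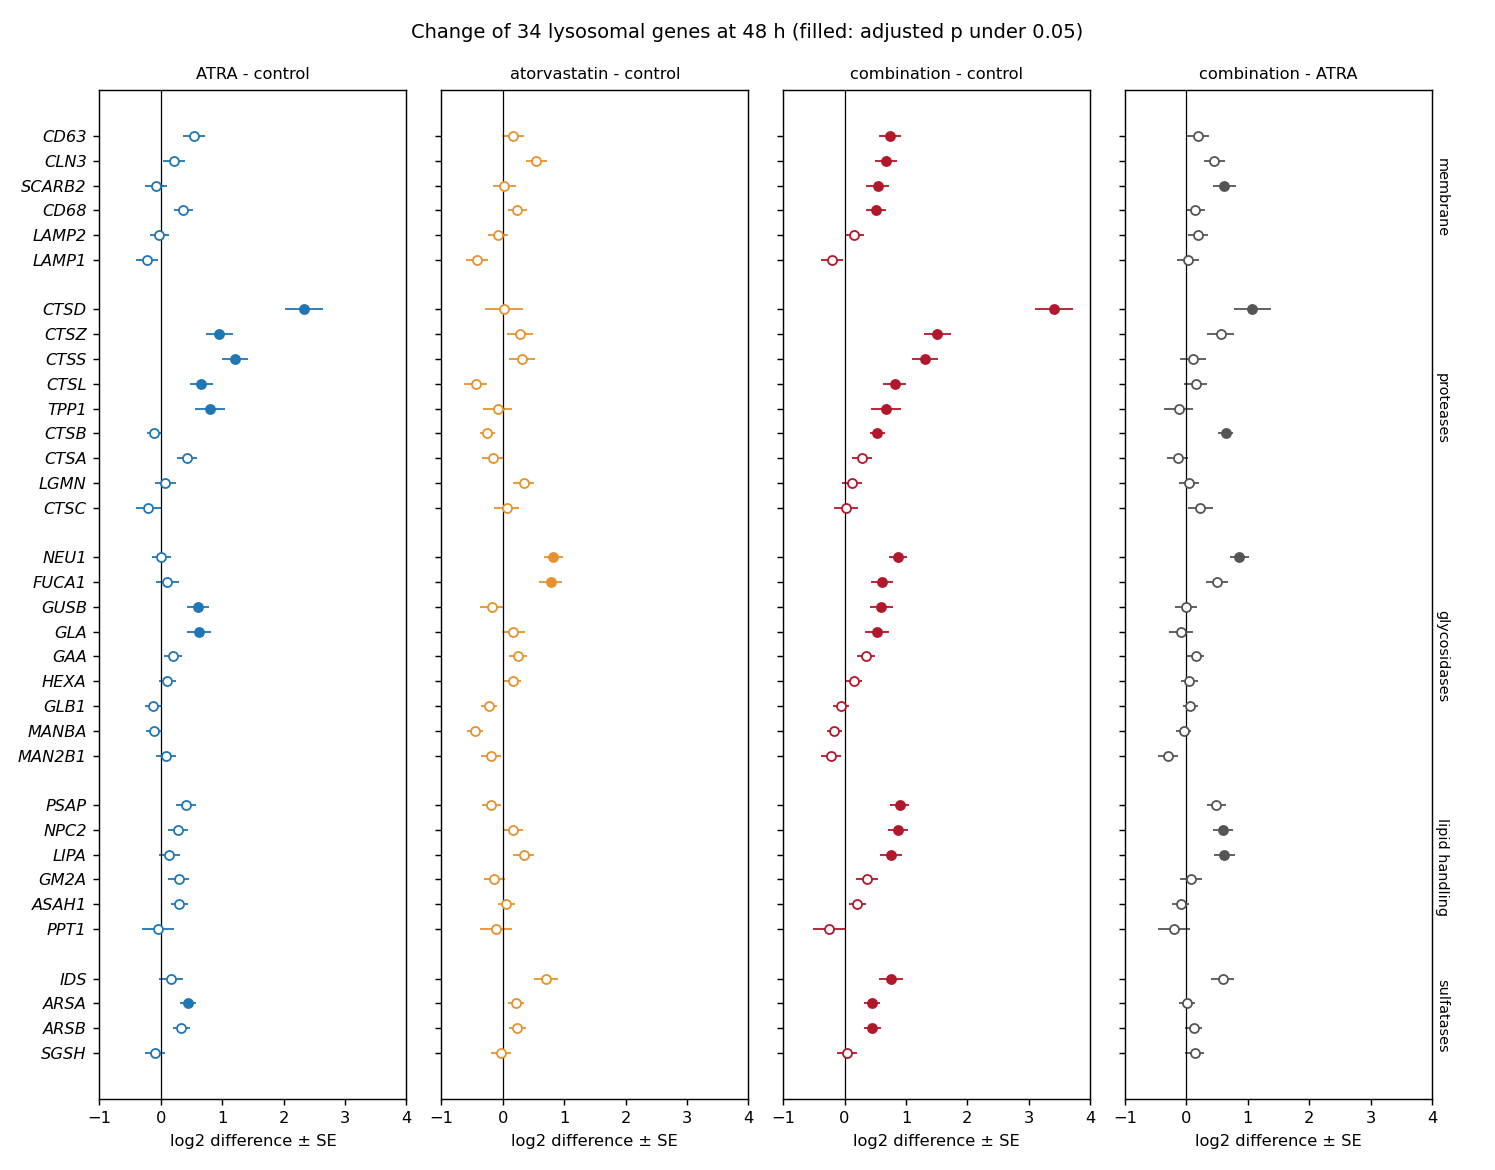
Log2 differences at 48 h of the 34 measured lysosomal genes, grouped by role, with bars of 1 standard error from the fit over 36 arrays (3 arrays a group); filled points passed an adjusted p of 0.05. With both agents 20 points are filled, all to the right of 0, against 8 with ATRA alone and 2 with atorvastatin alone.

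Among the proteases, 6 of 9 rose with both agents at 48 h. CTSD, the main aspartic protease of the lysosome, read 7.35, 7.88 and 7.68 in the control arrays, 10.00, 9.88 and 10.03 with ATRA, 7.44, 7.83 and 7.70 with atorvastatin, and 11.22, 10.88 and 11.03 with both. The combination arrays lay above every ATRA array, and the ATRA arrays above every control and atorvastatin array, while control and atorvastatin overlapped. The change was 3.41 ± 0.31 with both agents (adjusted p = 2.17e-10) and 2.33 ± 0.31 with ATRA (5.04-fold, adjusted p = 3.05e-06), and 0.02 ± 0.31 with atorvastatin (adjusted p = 0.995).

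CTSZ, a carboxypeptidase, read 9.56, 9.69 and 9.06 in control, 10.37, 10.57 and 10.23 with ATRA, and 11.25, 10.79 and 10.81 with both agents. It rose by 1.51 ± 0.22 with both (adjusted p = 2.02e-06) and by 0.95 ± 0.22 with ATRA (adjusted p = 0.0031). CTSS, a cysteine protease that trims the invariant chain in antigen-presenting cells, read 7.83, 7.78 and 7.79 in control, 9.10, 9.02 and 8.89 with ATRA, and 8.93, 9.24 and 9.17 with both. Its ATRA and combination arrays overlapped and lay above all controls, with rises of 1.20 ± 0.21 (adjusted p = 1.74e-04) and 1.31 ± 0.21 (adjusted p = 1.47e-05).

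CTSL, an endopeptidase, rose by 0.66 ± 0.19 with ATRA (adjusted p = 0.0216) and by 0.81 ± 0.19 with both (adjusted p = 0.0014). These values came from the brighter of its probes. The other probe averaged 6.28 over all arrays, below the array median of 6.33. It changed by -0.11 ± 0.13 with both (adjusted p = 0.829 over 41648 probes). With the mean of both probes neither rise passed, at 0.35 for ATRA (adjusted p = 0.119) and 0.35 for the combination (adjusted p = 0.0581). TPP1, the tripeptidyl peptidase lost in a neuronal ceroid lipofuscinosis, rose by 0.81 ± 0.24 with ATRA (adjusted p = 0.0317) and by 0.68 ± 0.24 with both (adjusted p = 0.0436). The other 3 proteases did not pass with both agents: CTSA at 0.28, LGMN at 0.12 and CTSC at 0.02. CTSC activates the serine proteases of granules.

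CTSB, the most studied cysteine cathepsin, followed another order. Its arrays at 48 h read 9.28, 9.17 and 8.97 in control, 8.81, 9.12 and 9.17 with ATRA, 8.88, 8.82 and 8.97 with atorvastatin, and 9.55, 9.66 and 9.80 with both agents. All 3 combination arrays lay above the other 9, which overlapped. CTSB rose by 0.53 ± 0.12 against control (adjusted p = 0.00124), by 0.64 ± 0.12 against ATRA (adjusted p = 5.62e-04) and by 0.78 ± 0.12 against atorvastatin (adjusted p = 1.29e-05).

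Against control, CTSB differed by -0.11 ± 0.12 with ATRA alone (adjusted p = 0.715) and by -0.25 ± 0.12 with atorvastatin alone (adjusted p = 0.427). The interaction at 48 h, the amount by which the combination departed from the sum of the single-agent changes, was 0.90 ± 0.17 (adjusted p = 0.00555). CTSB was the 1 lysosomal gene of 34 to pass this test, where 0.464% of all genes passed with a positive value and 0.0719% with a negative one, and its response to joint treatment was known when the genes were chosen. The call held when any 1 of the 12 arrays at 48 h was left out, but not without all arrays of experiment 1 (0.77, adjusted p = 0.183), experiment 2 (0.89, adjusted p = 0.325) or experiment 3 (1.02, adjusted p = 0.0643), nor in a fit of the 48 h arrays alone (adjusted p = 0.0805).

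For CTSD the interaction was 1.06 ± 0.43 with all arrays (adjusted p = 0.444) and 1.06 ± 0.21 without the 2 doubted libraries (adjusted p = 0.00374), which made 2 of 34 with CTSB, where 0.888% of all genes passed with a positive value. At 8 and at 24 h the interaction gave 0 of 34, with all arrays or without the doubted ones, and 0% of all genes (1 and 2 of the 34 at an unadjusted p under 0.05, either way). The doubted libraries are at 24 h, so they entered the test at 48 h only through the shared spread. At 24 h CTSD read 9.16 in the library labelled atorvastatin, against 7.76 and 7.20, and 7.62 in the library labelled ATRA, against 9.31 and 9.18.

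**Figure D2:**
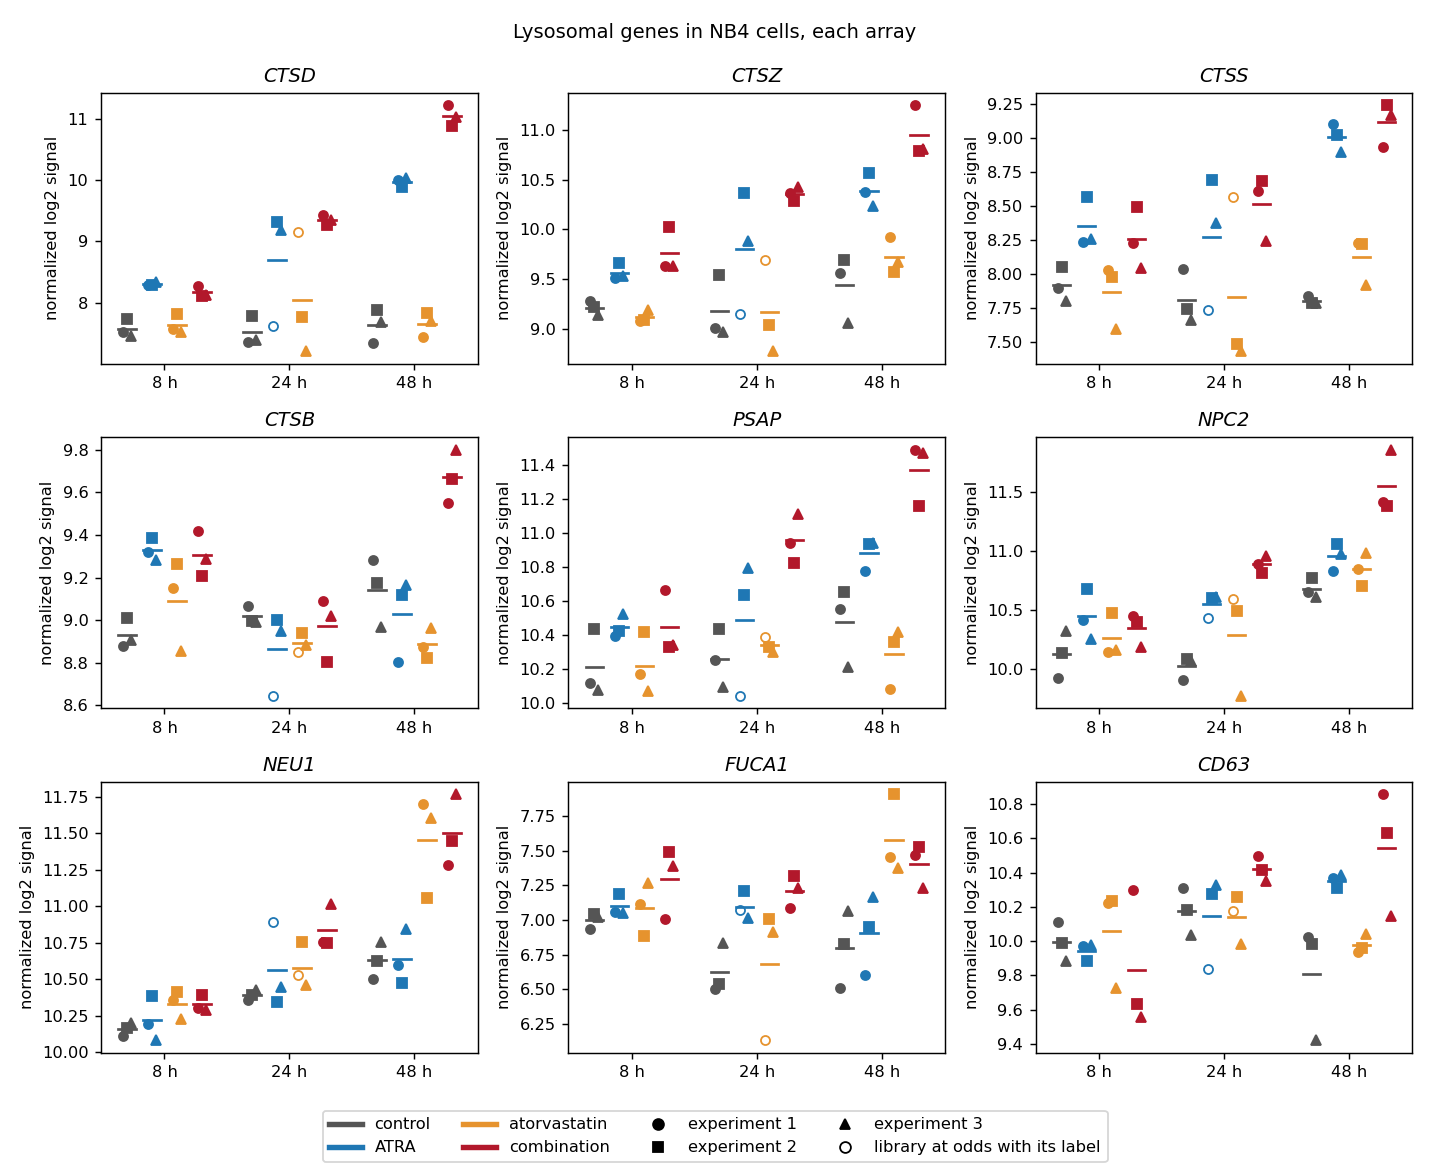
Normalized log2 signal of 9 lysosomal genes on each of the 36 arrays (colour, treatment; shape, experiment; horizontal bar, mean of 3 arrays; open points, the 2 libraries at 24 h that go against their labels). CTSD climbs with time in the ATRA and combination arrays, the 3 CTSB points of the combination at 48 h lie above the other 9 at that time, and NEU1 is high at 48 h in both arms with atorvastatin.

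Of the glycosidases, 4 of 9 rose with both agents at 48 h. NEU1, the lysosomal sialidase, read 10.50, 10.63 and 10.76 in control, 10.60, 10.47 and 10.84 with ATRA, 11.70, 11.06 and 11.60 with atorvastatin, and 11.28, 11.45 and 11.77 with both. All 6 arrays with atorvastatin lay above all 6 without it. NEU1 rose by 0.82 ± 0.15 with atorvastatin (adjusted p = 0.00246) and by 0.87 ± 0.15 with both (1.83-fold, adjusted p = 3.54e-05), and differed by 0.01 ± 0.15 with ATRA alone (adjusted p = 0.989).

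FUCA1, an alpha-fucosidase, read 6.51, 6.82 and 7.06 in control, 7.45, 7.91 and 7.38 with atorvastatin, and 7.46, 7.52 and 7.23 with both. It rose by 0.78 ± 0.18 with atorvastatin (adjusted p = 0.0276) and by 0.61 ± 0.18 with both (adjusted p = 0.0136). With median scaling in place of quantile normalization the atorvastatin changes of NEU1 (0.61, adjusted p = 0.35) and FUCA1 (0.63, adjusted p = 0.334) did not pass. That of NEU1 also failed without experiment 1 (0.64, adjusted p = 0.18) or experiment 3 (0.81, adjusted p = 0.0518) and in a fit of the 48 h arrays alone (adjusted p = 0.0578). That of FUCA1 failed without the first (0.63, adjusted p = 0.17) or second control array (0.79, adjusted p = 0.0955) or without the first (0.84, adjusted p = 0.0633) or second atorvastatin array (0.62, adjusted p = 0.129).

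GUSB, the beta-glucuronidase, and GLA, the alpha-galactosidase lacking in Fabry disease, rose in both arms with ATRA. The changes of GUSB were 0.60 ± 0.18 with ATRA (adjusted p = 0.0331) and 0.60 ± 0.18 with both (adjusted p = 0.0157). Those of GLA were 0.62 ± 0.19 (adjusted p = 0.0373) and 0.53 ± 0.19 (adjusted p = 0.0468). The other 5 glycosidases did not pass with both agents: GAA, the acid alpha-glucosidase, at 0.35 (adjusted p = 0.0833), HEXA at 0.15, GLB1 at -0.06, MANBA at -0.16 and MAN2B1 at -0.22.

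Of the 6 proteins of lipid breakdown, 3 rose with both agents at 48 h. PSAP, the precursor of the saposins that present sphingolipids to their hydrolases, read 10.55, 10.66 and 10.21 in control, 10.78, 10.94 and 10.94 with ATRA, 10.08, 10.36 and 10.42 with atorvastatin, and 11.49, 11.16 and 11.47 with both. NPC2, which moves cholesterol out of the lysosome, read 10.65, 10.77 and 10.61 in control, 10.83, 11.06 and 10.98 with ATRA, 10.85, 10.71 and 10.98 with atorvastatin, and 11.41, 11.38 and 11.86 with both. LIPA, the acid lipase that frees cholesterol from its esters, read 9.39, 9.25 and 9.71 in control and 10.29, 10.26 and 10.07 with both. For all 3 genes the combination arrays lay above every array of the other 3 groups at 48 h.

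Against control the combination changed PSAP by 0.90 ± 0.16 (adjusted p = 3.93e-05), NPC2 by 0.87 ± 0.16 (adjusted p = 7.36e-05) and LIPA by 0.75 ± 0.17 (adjusted p = 0.00129). None of the 3 passed with ATRA or atorvastatin alone at 48 h, and their interactions did not pass either. With median scaling PSAP did pass with ATRA (0.54, adjusted p = 0.0437) and in the interaction (1.10, adjusted p = 0.00726, against 0.68 and 0.239 with quantile normalization). The remaining lipid genes had values of 0.37 for GM2A, 0.21 for ASAH1 and -0.25 for PPT1. A dimmer ASAH1 probe fell by 0.50 ± 0.16 (adjusted p = 0.048 over 41648 probes), against 0.12 for another.

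Of the membrane proteins, 4 of 6 rose with both agents at 48 h. CD63, a tetraspanin of late endosomes and azurophil granules, read 10.02, 9.98 and 9.42 in control, 10.37, 10.31 and 10.38 with ATRA, 9.94, 9.96 and 10.04 with atorvastatin, and 10.86, 10.63 and 10.15 with both. The arrays of experiment 3 were the low ones of the control and combination groups, and these groups did not overlap. CD63 rose by 0.74 ± 0.18 with both agents (adjusted p = 0.00219), and with ATRA alone its change of 0.55 ± 0.18 just missed the threshold (adjusted p = 0.0537, and 0.0391 without the doubted libraries).

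CLN3, a membrane protein lost in juvenile Batten disease, rose by 0.67 ± 0.18 with both agents (adjusted p = 0.00452), SCARB2, the receptor that carries beta-glucocerebrosidase, by 0.54 ± 0.19 (adjusted p = 0.0351), and CD68, a macrophage-associated glycoprotein of the LAMP family, by 0.51 ± 0.16 (adjusted p = 0.017). CD68 averaged 6.38 in control, near the array median of 6.33. LAMP1 and LAMP2, the main glycoproteins lining the lysosomal membrane, did not pass, at -0.20 ± 0.18 and 0.16 ± 0.16. For LAMP2 the probes disagreed: the 2 dimmer ones, annotated to another transcript than the probe used, rose by 0.65 ± 0.16 (adjusted p = 0.00394) and 0.50 ± 0.13 (adjusted p = 0.00659 over 41648 probes). These probes were looked up after the values were seen.

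Of the 4 sulfatases, 3 rose with both agents. IDS, the iduronate sulfatase lacking in Hunter syndrome, read 6.54, 7.62 and 7.58 in control, 8.04, 7.88 and 7.94 with atorvastatin, and 8.12, 7.98 and 7.90 with both. Its control array of experiment 1 was the lowest. The rise with both agents was 0.75 ± 0.19 (adjusted p = 0.00404), and 0.40 without that array (adjusted p = 0.112). ARSA, the sulfatase lacking in metachromatic leukodystrophy, and ARSB each rose by 0.45, with adjusted p of 0.0111 and 0.014. ARSB was the 1 gene called with both agents whose groups overlapped, its other probe was at 0.00, and with the mean of both probes it did not pass (0.22, adjusted p = 0.15). SGSH was at 0.04, near the array median.

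Of these 20 rises, 8 kept an adjusted p under 0.05 when any 1 of the 6 arrays or any whole experiment was left out: CTSD, CTSZ, CTSS, CTSL, PSAP, NPC2, NEU1 and CLN3. The other 12 lost it in at least 1 such fit. For CTSB, CD63 and LIPA this was only a fit without a whole experiment (adjusted p = 0.111, 0.0576 and 0.081). For ARSA, ARSB, FUCA1, GUSB, TPP1, IDS and CD68 the control array of experiment 1 was among those whose omission ended the call, and without it 13 of the 34 passed. That control array had a raw median signal of 170.6, against 107.4 in the combination array of experiment 1. The part of this brightness in the calls was not tested. SCARB2 (0.36, adjusted p = 0.238) and GLA (0.44, adjusted p = 0.173) lost the call without the control array of experiment 3, among others.

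Promoters of some of the 36 genes are printed below, chosen because they hold CACGTG, the core of the motif that TFEB and TFE3 bind. CACGTG was not confined to genes that rose, and a gene that did not pass is among those printed. The RefSeq promoter table (GRCh38.p14, 250 bases before to 50 after the start) held 26 of the 36 genes. CACGTG, which reads alike on both strands, was in 8 of the 26 (30.8%), against 7.26% of the 35116 promoters in the table. TCACGTGA, also palindromic and containing CACGTG, was in 4 of 26 (15.4%, against 0.98%), and a longer palindrome with 1 more base on each side in 1 (3.85%, against 0.353%). The 8 were LAMP1, CLN3, CTSA, CTSD, GAA, NEU1, ARSB and ACP5. These shares describe a list picked by name for lysosomal function and do not depend on the array values. They stand against all promoters in the table, not against the genes tested.

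Printed here are CTSD, the gene with the largest rise, at chr11:1763878-1764177 on the minus strand; NEU1, which rose in both arms with atorvastatin, at chr6:31862772-31863071 on the minus strand; CLN3, which rose with both agents, at chr16:28492033-28492332 on the minus strand; and LAMP1, which held the most copies and did not pass, at chr13:113296989-113297288 on the plus strand. Each is written 5′ to 3′ along the gene, and capitals mark CACGTG or, where the flanks extend it, TCACGTGA.
CTSD: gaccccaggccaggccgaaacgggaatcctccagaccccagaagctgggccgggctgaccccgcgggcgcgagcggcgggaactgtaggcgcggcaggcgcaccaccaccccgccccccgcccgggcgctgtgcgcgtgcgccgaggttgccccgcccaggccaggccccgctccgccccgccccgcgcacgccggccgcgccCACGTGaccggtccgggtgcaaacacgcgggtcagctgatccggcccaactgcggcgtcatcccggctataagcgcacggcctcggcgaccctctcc
NEU1: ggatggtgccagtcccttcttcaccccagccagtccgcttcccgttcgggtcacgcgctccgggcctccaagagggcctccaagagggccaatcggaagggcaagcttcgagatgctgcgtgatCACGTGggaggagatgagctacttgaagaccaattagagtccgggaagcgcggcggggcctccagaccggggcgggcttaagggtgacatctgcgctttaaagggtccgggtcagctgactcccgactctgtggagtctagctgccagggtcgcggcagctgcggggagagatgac
CLN3: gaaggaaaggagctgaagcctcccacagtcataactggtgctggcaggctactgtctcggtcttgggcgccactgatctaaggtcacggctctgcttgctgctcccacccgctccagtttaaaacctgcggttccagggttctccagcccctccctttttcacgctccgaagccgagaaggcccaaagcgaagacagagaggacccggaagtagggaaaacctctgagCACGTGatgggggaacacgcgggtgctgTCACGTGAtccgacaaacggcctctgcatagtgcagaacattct
LAMP1: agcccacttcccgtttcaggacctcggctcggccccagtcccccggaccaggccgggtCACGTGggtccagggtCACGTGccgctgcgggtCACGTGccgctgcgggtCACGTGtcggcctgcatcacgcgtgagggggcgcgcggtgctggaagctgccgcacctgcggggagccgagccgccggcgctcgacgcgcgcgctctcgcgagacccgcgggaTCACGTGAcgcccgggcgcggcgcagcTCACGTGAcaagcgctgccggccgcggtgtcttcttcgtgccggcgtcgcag
CACGTG began at -47 from the start in CTSD and at -126 in NEU1, it occurred 2 times in CLN3 from -22, and 6 times in LAMP1 from -192. A match is a description of these letters and not a binding site. Of the 7 measured genes with CACGTG, 4 rose with both agents at 48 h, and of the 17 measured genes in the table without it, 12 did.

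ATRA alone raised 8 of the 34 genes at 48 h and lowered 0, where 4.04% of all genes rose and 3.96% fell. The 8 were CTSD, CTSS, CTSZ, TPP1, CTSL, GLA, GUSB and ARSA, and 5 of them were among the 9 proteases. The median change was 0.21, beside -0.01 for all genes. Leaving out the doubted libraries gave 9 (4.73% of all genes rose), with CD63 added. CTSD and CTSS passed whichever array or experiment was left out, and the other 6 did not in at least 1 such fit.

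Atorvastatin alone raised 2 of the 34 at 48 h, NEU1 and FUCA1, where 0.496% of all genes rose and 0.274% fell. Without the doubted libraries it was 4 (1.12% of all genes rose and 0.588% fell): IDS also rose by 0.71 ± 0.17 (adjusted p = 0.0177), and MANBA, a beta-mannosidase, fell by 0.45 ± 0.12 (adjusted p = 0.0386). The low IDS control array of experiment 1 enters the value of IDS. With all arrays, other IDS probes changed by 0.58 ± 0.17 (adjusted p = 0.184) and -0.09 ± 0.16 (adjusted p = 0.961 over 41648 probes). The median change of the 34 with all arrays was 0.06, beside 0.00 for all genes.

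Adding atorvastatin to ATRA raised 6 of the 34 at 48 h against ATRA alone and lowered 0, where 3.42% of all genes rose and 2.98% fell. They were CTSD (1.08 ± 0.31, adjusted p = 0.0263), NEU1 (0.86 ± 0.15, adjusted p = 1.95e-04), CTSB, SCARB2 (0.62 ± 0.19, adjusted p = 0.0383), LIPA (0.62 ± 0.17, adjusted p = 0.0244) and NPC2 (0.59 ± 0.16, adjusted p = 0.0164). In SCARB2 the ATRA arrays read 8.75, 8.95 and 9.37 and the combination arrays 9.73, 9.70 and 9.49, without overlap.

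Without the doubted libraries 10 passed against ATRA (4.11% of all genes rose), with PSAP (0.49, adjusted p = 0.0216), FUCA1 (0.50, adjusted p = 0.0442), CTSZ (0.56, adjusted p = 0.0283) and IDS (0.59, adjusted p = 0.0221) added. CTSB and NEU1 passed in every fit that left out 1 array or 1 experiment. CTSD, LIPA, NPC2 and SCARB2 did not, and omission of the first ATRA array ended the call of each (adjusted p = 0.0775, 0.188, 0.0987 and 0.244). Median scaling also gave 10. TPP1, GLA, GUSB and ARSA, which rose with ATRA, differed by -0.13, -0.09, 0.00 and 0.01 between the combination and ATRA.

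Against atorvastatin alone, the combination at 48 h raised 11 of the 34 and lowered 0, where 7.1% of all genes rose and 7.74% fell. The largest were CTSD (3.39 ± 0.31, adjusted p = 6.98e-10), CTSL (1.26 ± 0.19, adjusted p = 8.06e-06), CTSZ (1.23 ± 0.22, adjusted p = 8.07e-05), PSAP (1.09 ± 0.16, adjusted p = 4.08e-06), CTSS (0.99 ± 0.21, adjusted p = 8.97e-04) and CTSB. The others were GUSB, TPP1, NPC2, CD63 and GM2A, the GM2 activator. NEU1 differed by 0.05 ± 0.15 (adjusted p = 0.909). Leaving out the doubted libraries gave 13 (7.59% of all genes rose), with SCARB2 and CTSA added. Median scaling gave 26 of the 34, with a median change of 0.76 in place of 0.26.

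At 8 h few of the genes had moved. ATRA raised CTSA, a carboxypeptidase that protects NEU1, by 0.64 ± 0.17 (adjusted p = 0.0435), the 1 call of 34 where 0.849% of all genes rose and 0.568% fell. Its ATRA arrays read 11.31, 11.59 and 11.72 and the controls 10.99, 10.94 and 10.76, without overlap, and the call was lost without any 1 of the controls (adjusted p = 0.1, 0.12 and 0.184), or without the ATRA array of experiment 2 (adjusted p = 0.202) or experiment 3 (adjusted p = 0.227). CTSD read 8.28, 8.28 and 8.34 with ATRA and 7.52, 7.73 and 7.45 in control, a difference of 0.73 ± 0.31 (adjusted p = 0.367) that passed without the doubted libraries (adjusted p = 0.00141), when 1.57% of all genes rose. CTSB read 9.32, 9.38 and 9.28 with ATRA and 9.42, 9.21 and 9.29 with both agents. Its controls read 8.88, 9.01 and 8.91, below all of these arrays. CD63 read 9.97, 9.88 and 9.98 with ATRA, 10.30, 9.63 and 9.56 with both, and 10.11, 9.99 and 9.88 in control. With all arrays neither CTSB nor CD63 passed at 8 h. The combination gave 0 calls of 34 against control (1.31% of all genes passed, 4 of the 34 at an unadjusted p under 0.05) and 1, CTSD, without the doubted libraries (1.42% of all genes rose). Atorvastatin against control and the combination against ATRA each gave 0, with 0.00653% of all genes called (0.0196% without the doubted libraries) and 0 of the 34 at an unadjusted p under 0.05. The combination against atorvastatin gave 0 (1.16% of all genes, 2 of the 34 at an unadjusted p under 0.05), and 2, CTSD and CTSZ, without the doubted libraries (1.45% of all genes rose).

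At 24 h the combination raised 9 of the 34 against control and lowered 0, where 3.52% of all genes rose and 2.52% fell. They were CTSD (1.83 ± 0.31, adjusted p = 1.47e-04), CTSZ (1.18 ± 0.22, adjusted p = 4.39e-04), CTSL (1.11 ± 0.19, adjusted p = 1.95e-04), NPC2 (0.86 ± 0.16, adjusted p = 4.52e-04), CTSS (0.70 ± 0.21, adjusted p = 0.0417), PSAP (0.70 ± 0.16, adjusted p = 0.00351), GUSB, CTSA and FUCA1. CTSD read 7.36, 7.79 and 7.39 in control and 9.43, 9.27 and 9.34 with both. Without the doubted libraries 11 rose (4.4% of all genes), with TPP1 and NEU1 added, and CTSC fell by 0.58 ± 0.18 (adjusted p = 0.0361, 3.23% of all genes fell). CTSB and CD63 did not pass at 24 h, at -0.05 and 0.24. CTSD, CTSL and NPC2 kept the call in every fit without 1 array or 1 experiment.

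The single agents at 24 h rest on the doubted libraries. With all arrays, ATRA gave 0 calls of 34 against control (0.581% of all genes, 9 of the 34 at an unadjusted p under 0.05). Without them 7 rose (2.63% of all genes), with CTSD at 1.73 ± 0.16 (adjusted p = 1.17e-09), CTSZ at 0.95 ± 0.18, TPP1 at 0.88 ± 0.20, CTSL at 0.74 ± 0.17, CTSS at 0.72 ± 0.16, CTSA at 0.59 ± 0.17 and NPC2 at 0.58 ± 0.17. Atorvastatin gave 0 of 34 either way (0.0327% and 0.327% of all genes), with 2 at an unadjusted p under 0.05 with all arrays and 4 without the doubted ones. The combination against ATRA gave 0 of 34 either way (0.0131% and 0.216% of all genes), with 7 and 3 at an unadjusted p under 0.05. Against atorvastatin 5 rose with all arrays, CTSD, CTSZ, CTSL, PSAP and NPC2 (1.21% of all genes rose and 0.261% fell), and 9 without the doubted libraries (3.26% of all genes rose). Median scaling gave 6 for ATRA against control and 14 for the combination against atorvastatin. Each of the 5 lost the call in at least 1 fit without an array or experiment.

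**Figure D3:**
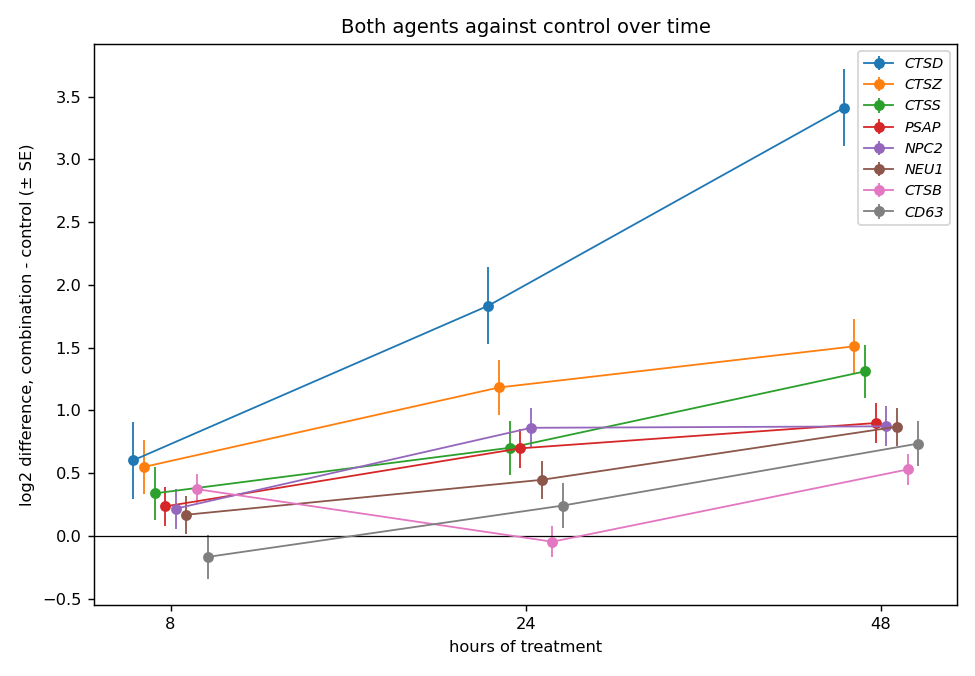
Log2 difference between the combination and control at 8, 24 and 48 h for 8 lysosomal genes, with bars of 1 standard error (3 arrays a group). CTSD reaches 3.41 at 48 h, while CTSB is at 0.37, -0.05 and 0.53 at the 3 times.

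The growth of the combination's effect from 8 to 48 h was tested in the same fit. It passed for 3 of 34 genes, where 3.12% of all genes passed in that direction and 2.53% in the other: CTSD (2.81 ± 0.43, adjusted p = 4.34e-05), CD63 (0.90 ± 0.25, adjusted p = 0.0261) and NEU1 (0.70 ± 0.21, adjusted p = 0.0435). The number was 1 with an offset of 16, 6 with experiment as a block and 9 with median scaling. It was 10 with that block and without the doubted libraries. Without the doubted libraries 8 passed (4.15% of all genes), with SCARB2, CTSS, CTSZ, PSAP and IDS added. The value of IDS again includes its low control array of experiment 1 at 48 h. For ATRA the same test gave 0 of 34 (0.457% of all genes, 4 of the 34 at an unadjusted p under 0.05), and 2, CTSD and CTSS, without the doubted libraries (1.03% of all genes). For atorvastatin it gave 0 of 34 (0.098% of all genes, 5 of the 34 at an unadjusted p under 0.05), also without the doubted libraries (0.32% of all genes, 7 of the 34 at an unadjusted p under 0.05).

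Untreated cells also changed with time in culture. Between 8 and 48 h, MANBA rose by 0.71 ± 0.12 (adjusted p = 5.61e-04) and NPC2 by 0.55 ± 0.16 (adjusted p = 0.0448), where 1.9% of all genes rose, and CLN3 fell by 0.61 ± 0.18 (adjusted p = 0.0434), where 1.77% fell. CLN3 read 8.69, 8.85 and 8.74 at 8 h and 8.16, 8.03 and 8.27 at 48 h, without overlap. At 48 h it stood at 8.94, 8.44 and 9.09 in the combination, which overlapped its controls at 8 h. Each of the 3 lost the call in at least 1 fit without an array or experiment. Without the doubted libraries 6 passed (2.51% of all genes rose and 2.33% fell), with NEU1 and TPP1 also higher and IDS also lower. The low IDS control array of experiment 1 at 48 h enters the value of IDS.

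The rest of the pathway was described from further lists of genes, for both agents against control at 48 h, where 9.66% of all genes rose and 10.7% fell. Without the doubted libraries their counts were the same, except for 9 rises in the V-ATPase and 1 fall in sorting. Of 21 further enzymes measured, 6 rose and 2 fell, with SMPD1, the acid sphingomyelinase, at 0.65, IDUA, the iduronidase, at 0.63 and CTSK at 0.61, and DNASE2 at -0.58 and HYAL2 at -0.41. SMPD1, IDUA and CTSK averaged 6.46, 6.57 and 6.37 in control, not far above the array median of 6.33. Of 15 further membrane proteins 5 rose, with LAPTM5 at 1.70, OSTM1 at 0.72 and NPC1, the partner of NPC2 in cholesterol export, at 0.72, and 0 fell. Of 19 subunits of the V-ATPase 8 rose and 0 fell, with TCIRG1 at 2.18 ± 0.58 (adjusted p = 0.00506), ATP6V0D1 at 1.12 and ATP6V1H at 0.64.

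Of 13 genes of enzyme tagging and sorting 3 rose and 0 fell: GNPTAB, which begins the mannose 6-phosphate tag, at 0.74, M6PR at 0.63 and IGF2R, both receptors of the tag, at 0.54. Of 8 regulators, TFEB rose by 0.67 ± 0.12 (adjusted p = 9.85e-05), TFE3 by 0.60 ± 0.17 (adjusted p = 0.00751) and RRAGC by 0.49, MTOR fell by 0.53, and MITF did not pass at -0.18. TFE3 averaged 6.94 in control at 8 h, 6.34 in control at 48 h and 6.93 in the combination at 48 h. TFEB averaged 6.29 in control, below the array median of 6.33, and 6.96 in the combination, and was also higher than with ATRA alone (0.48 ± 0.12, adjusted p = 0.0125). Among 6 inhibitors of lysosomal and granule proteases, SERPINB1 rose by 2.92 and CSTB by 0.50, while CST7, which inhibits CTSC and other cysteine cathepsins, fell by 3.36 ± 0.32 (adjusted p = 9.39e-10).

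Of 9 genes measured from the azurophil granule list, 5 fell and 2 rose, with CTSG at -4.45 ± 0.33 (adjusted p = 3.62e-12), PRG2 at -2.19 and MPO at -1.78, and with BPI at 2.79 and LYZ at 0.80. The list also holds PRG2 and RNASE2, which code for eosinophil granule proteins. BPI averaged 6.22 in control, below the array median, so its change has no exact size. Against ATRA alone, PLA2G15, a lysosomal phospholipase, was higher in the combination by 0.44 ± 0.12 (adjusted p = 0.0187), NPC1 by 0.60 ± 0.12 (adjusted p = 8.08e-04), ATP6V0A1 by 0.59, ATP6V1B2 by 0.48 and LYZ by 1.06, while MPO was lower by a change of -0.71 and BPI by -0.89.

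**Figure D4:**
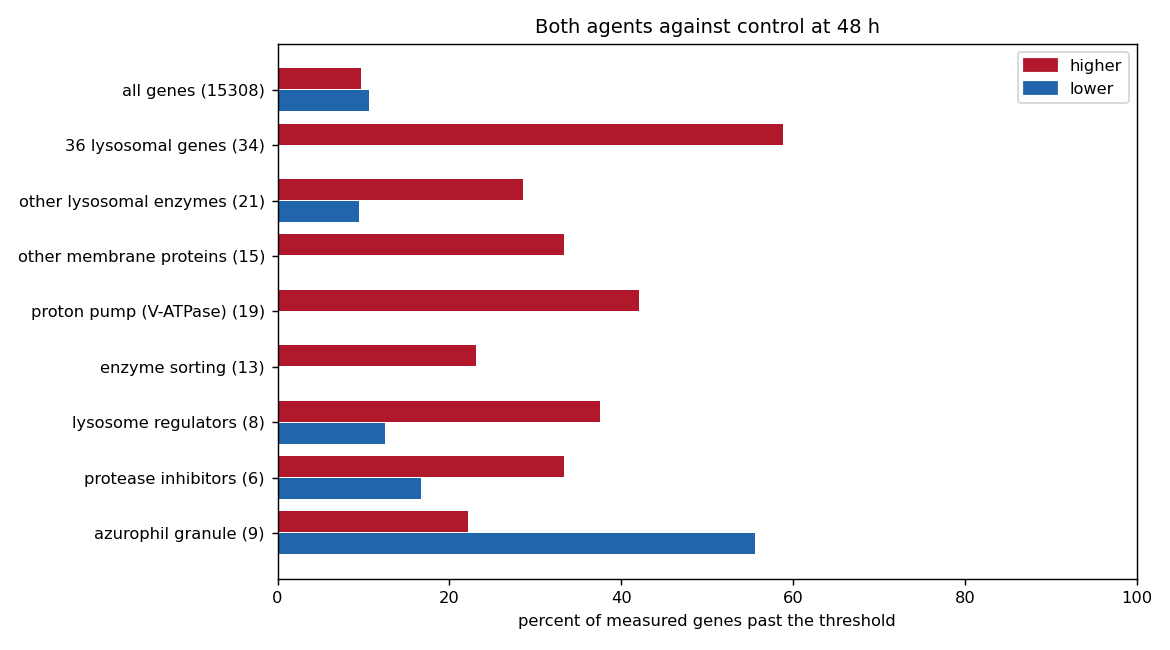
Percent of measured genes that rose (red) or fell (blue) at an adjusted p under 0.05 with both agents against control at 48 h, for all genes and for each list, with the number measured in brackets. Among the 34 lysosomal genes 20 rose and 0 fell, whereas 5 of 9 genes of the azurophil granule list fell. That list also holds PRG2 and RNASE2, which code for eosinophil granule proteins.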

How the data were processed

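Per the labels, total RNA of NB4 cells was hybridised to 36 Sentrix Human-6 arrays, and the authors computed average probe intensity in BeadStudio 1.3.1.5 without background correction. The deposited arrays hold this intensity on a linear scale for 47293 probes, with no detection p. The deposited series table holds log2 values normalized by the authors, and was used as an alternative. Number of arrays, not read depth, limits precision here.

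The intensities were corrected by normexp (offset 50), put on the log2 scale and quantile normalized with limma 3.58.1 in R 4.3.3. A probe had to exceed the array median on 3 or more arrays, as 41648 did. Of these, 17227 had 1 gene symbol in the platform annotation, where 28825 of all probes have none or several. A gene with several probes was read from the brightest, which left 15308 genes. One model with 12 group means (24 residual degrees of freedom) gave every comparison, two-sided, with Benjamini-Hochberg adjustment over all genes. The rule for named genes was CTSB and CD63 throughout, up to 6 members with the largest change past the threshold in each comparison, any member past it in an interaction, and up to 3 rises and 3 falls of each other list. The members and lists were chosen with earlier results of these data known. The experiment of an array was taken from runs of 12 in the title numbers. Deviations of arrays sharing an experiment correlated with medians of 0.17, 0.05 and 0.13, not above 0.1 in every pair, so experiment was no term of the model. The fit was tested on simulated data for both agents against control at 48 h, with the spread seen without the doubted libraries. A true change of 0.5 was called in 48% of 50 genes, 1 in 94% and 2 in 100%. Of 178 calls 8 were false. A change near 0.5 that did not pass can thus be a missed one. Alternatives were another normalization, background correction, filter, probe rule and offset, the authors' log2 values, blocks of experiment, and omission of arrays.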

Additional observations from a re-analysis of the deposited data

Results flagged for a closer look

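CTSB stood out because its response to one agent depended on the other at 48 h: the interaction of ATRA and atorvastatin was 0.895 on the log2 scale (SE 0.17, limma adjusted p = 0.00555). This response was known when the genes were chosen, and it did not pass without experiment 1 (adjusted p = 0.183), 2 (adjusted p = 0.325) or 3 (adjusted p = 0.0643), nor in a fit of the 48 h arrays alone (adjusted p = 0.0805). Further genes stood out because the effect of both agents against control differed between 48 and 8 h. That difference was 2.81 for CTSD (SE 0.43, adjusted p = 4.34e-05), 0.903 for CD63 (SE 0.25, adjusted p = 0.0261) and 0.701 for NEU1 (SE 0.21, adjusted p = 0.0435). Without the second experiment, the values of CD63 (0.85, adjusted p = 0.369) and NEU1 (0.75, adjusted p = 0.185) did not pass, as in other omissions of an array or experiment, and that of CTSD passed in every one.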

How the results depend on the processing

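Of the 69 member changes that passed, 0 changed sign under any alternative run. The count with both agents against control at 48 h lay between 17 and 23 across the alternatives that kept all 36 arrays, beside 20 as reported, and was 16 in a fit of the 48 h arrays alone. Median scaling moved the median of all genes to 0.10 and that of the members to 0.81 in this comparison, 0.71 apart, against 0.54 with quantile normalization. The cause of the changes below was not tested. A fit of only the times compared, or without an array, has fewer samples and another estimate of the spread. Counts in such fits moved in both directions.

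With median scaling, the number of members called was 0 for ATRA at 8 h, 6 for ATRA at 24 h, 0 for atorvastatin at 48 h and 10 for the combination against ATRA at 48 h. It was 1, 14 and 26 for the combination against atorvastatin at 8, 24 and 48 h, 2 for the interaction at 48 h, 1 for control at 48 against 8 h, and 1 and 9 for the growth from 8 to 48 h of the ATRA and combination effects. Without a call in either case, CTSB with ATRA at 48 h moved to 0.0169 and CD63 with atorvastatin at 48 h to -0.0219. The authors' log2 values gave 0 for ATRA at 8 h, 3 for the combination against atorvastatin at 24 h, 5 for ATRA and 1 for atorvastatin at 48 h, and 8 for the growth of the combination effect. An offset of 16 gave 0, 3, 5, 1 and 1 in these comparisons, 3 for the combination against ATRA at 48 h and 1 for control at 48 against 8 h. The growth of the combination effect gave 5 without background correction and 5 with a minimum interquartile range of 0.2.

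Arrays of an experiment shared part of their deviations, as 31 of 36 arrays correlated best with an array of their own experiment. In experiments 1, 2 and 3, 54, 28 and 44 of 66 pairs exceeded 0.1. The rule for a term in the model asked this of every pair, so the main model left the shared part in the spread. With experiment as a block the growth of the combination effect gave 6 and no other count moved by over 1.5 times. Leaving out the 2 doubted libraries gave 2, 1 and 2 at 8 h (ATRA, the combination against control, the combination against atorvastatin), 7 and 9 at 24 h (ATRA, the combination against atorvastatin), and 4, 10 and 2 at 48 h (atorvastatin, the combination against ATRA, the interaction), with 6 for control over time and 2 and 8 for the growth of the ATRA and combination effects. With the block as well, a fit chosen after seeing the data, these became 3, 3 and 2, 7 and 10, 5, 11 and 2, 6, 2 and 10. Treating each experiment's ATRA and ATRA-free arrays as random blocks, also chosen after seeing the data (correlation 0.108), gave 4 for atorvastatin at 48 h and 7 for the growth of the combination effect.

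Fits of only the times compared gave 3, 3 and 3 at 8 h (ATRA, the combination against control, the combination against atorvastatin), 5 and 0 at 24 h (the combination against control and against atorvastatin), 0 and 0 at 48 h (atorvastatin, the interaction), 5 for control over time, and 1 and 7 for the growth of the ATRA and combination effects.

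Leaving out an array or an experiment gave 0 to 2 for ATRA at 8 h, 0 to 5 for ATRA at 24 h, 4 to 7 and 0 to 9 for the combination against control and atorvastatin at 24 h, 3 to 7 for ATRA and 0 to 3 for atorvastatin at 48 h, 11 to 17, 2 to 6 and 8 to 11 for the combination against control, ATRA and atorvastatin at 48 h, 0 to 1 for the interaction, 1 to 2 for control over time, and 0 to 1 and 1 to 4 for the growth of the ATRA and combination effects. The lowest count for both agents against control at 48 h came without experiment 2. CTSB with ATRA at 48 h then lay between -0.267 and 0.0712, CD63 with atorvastatin at 48 h between -0.0551 and 0.297, and the interaction of CD63 between -0.255 and 0.460, beside 0.02 with all arrays; none of these passed with all arrays.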
